A study of Mus musculus with 16 samples.

Results

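The 10 genes described here encode precursors of neuropeptides that sensory neurons are known to use: *Calca*, *Calcb*, *Tac1*, *Nmb*, *Adcyap1*, *Vip*, *Gal*, *Npy*, *Nts* and *Cartpt*. They were chosen by symbol, with earlier results of these data known, and all 10 had a row among the 22609 gene symbols counted. RNA-seq was performed on sensory neurons of naïve C57BL/6J mice, labelled male and aged 8 to 12 weeks, that carried a Cre allele at *Pirt*, a gene of nearly all sensory neurons, and a Cre-dependent TdTomato allele at Rosa26, so that neurons with a history of *Pirt* activity were red. All groups shared this genotype and no treatment was given. TdTomato-positive cells with medium or strong fluorescence were sorted from trigeminal ganglion (TG), which serves the head and face, from the nodose-jugular complex of the vagus nerve (NG/JG), which serves internal organs, and from dorsal root ganglia (DRG) of the levels L3–L5, which serve the leg and paw, and T10-L1, which serve the lower trunk and viscera. There were 4 libraries for each kind of ganglion and 16 in all. Whether libraries came from separate animals is not given in the labels, so p-values measure the spread between libraries.

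Neuropeptides are cut from larger precursors in the secretory pathway, stored in dense-core vesicles and released from nerve endings in the tissue and in the central nervous system, where they act on G protein-coupled receptors. In sensory ganglia, peptides such as calcitonin gene-related peptide (CGRP) and substance P mark peptidergic nociceptors, small neurons that signal damage and that widen blood vessels and draw plasma from them when they release peptide. Galanin, neuropeptide Y, vasoactive intestinal peptide (VIP) and pituitary adenylate cyclase-activating peptide (PACAP) are known for rising in sensory neurons after their axons are cut.

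*Calca* and *Calcb* encode α-CGRP and β-CGRP, and they are shown first because reads of 50 bases must tell 2 nearly identical stretches apart. On mm9, the mouse build of the counts, *Calca* lies at chr7:121774994-121779871, minus strand, and *Calcb* at chr7:121862157-121866879, plus strand, so that both are on chromosome 7. The coding sequence that yields the mature peptide spans 111 bases in each, and 106 of them are the same in both genes. Both stretches are shown from GENCODE M1 transcripts, with the 5 bases that differ in capitals.
Calca: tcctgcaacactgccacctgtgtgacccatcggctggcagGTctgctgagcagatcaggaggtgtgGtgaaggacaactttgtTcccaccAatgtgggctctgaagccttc
Calcb: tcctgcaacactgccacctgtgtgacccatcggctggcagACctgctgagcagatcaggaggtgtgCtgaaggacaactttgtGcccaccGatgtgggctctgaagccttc
The longest run without a difference was 40 bases here, which is shorter than a read. Over the whole CGRP coding sequence of the genes, 328 of 384 aligned bases matched, or 85.4%. Of the 50-base windows of annotated transcript, 12 of 1431 for *Calca* and 11 of 913 for *Calcb* had a second exact match on the genome. The other 8 precursors had no such window. The count for *Calca* pools its 2 products, since the gene also makes calcitonin by alternative splicing. Of the exon bases of *Nmb*, 20.6% overlapped *Sec11a*, and the strand setting of the counting is not given in the sources used here.

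Cyclic AMP is a known inducer of several of these precursors through the sequence TGACGTCA and its shorter form TGACG. RefSeq promoters on GRCm38.p6 matched 9 of the 10 genes by symbol, and the 250 bases before the start site were searched on both strands. TGACG, written CGTCA on the other strand and contained in TGACGTCA, was found for 6 of the 9 genes and in 17.8% of all promoters in the table. The 8-base form TGACGTCA was found for *Cartpt* alone of the 9 and in 1.55% of all promoters. The promoters of 3 genes are shown with these letters in capitals, those of *Calca* (chr7:114636358-114636607, minus strand) and *Tac1* (chr6:7554811-7555060, plus strand), whose levels lay low together in NG/JG, and that of *Cartpt* (chr13:99900684-99900933, minus strand), which holds the longer form. A match describes the letters and is not evidence of binding.
Calca: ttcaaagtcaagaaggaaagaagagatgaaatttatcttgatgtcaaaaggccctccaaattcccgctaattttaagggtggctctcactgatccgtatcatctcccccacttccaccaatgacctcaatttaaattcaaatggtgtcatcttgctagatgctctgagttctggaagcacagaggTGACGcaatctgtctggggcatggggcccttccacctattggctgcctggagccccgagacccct
Tac1: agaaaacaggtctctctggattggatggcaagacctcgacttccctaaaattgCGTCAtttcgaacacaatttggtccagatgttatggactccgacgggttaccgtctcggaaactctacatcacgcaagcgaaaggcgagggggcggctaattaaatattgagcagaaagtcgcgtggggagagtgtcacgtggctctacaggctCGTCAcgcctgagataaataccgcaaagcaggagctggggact
Cartpt: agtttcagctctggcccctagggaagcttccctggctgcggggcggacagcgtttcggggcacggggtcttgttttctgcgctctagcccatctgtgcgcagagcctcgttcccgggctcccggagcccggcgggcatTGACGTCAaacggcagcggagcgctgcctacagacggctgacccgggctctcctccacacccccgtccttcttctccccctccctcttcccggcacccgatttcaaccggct

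The libraries held 4735624 to 13333318 reads on genes, and a floor of 3 counts corresponded to 0.225 CPM (reads of the gene scaled to a fixed total of reads on genes) in the deepest and 0.633 CPM in the shallowest, counting error only. The 9 genes fixed as sensory neuron identity, among them *Pirt*, *Avil* and *Prph*, were counted in every ganglion, with summed levels of 889 to 3403 CPM in TG, 1429 to 4849 in NG/JG, 1188 to 10796 in L3–L5 DRG, with 2011 to 3475 in T10-L1 DRG. The lowest sums were those of TG library 1 (889 CPM), L3–L5 DRG library 4 (1188 CPM) and NG/JG library 1 (1429 CPM). Satellite glial markers summed to 22091 to 62068 CPM in TG, 26726 to 40714 in NG/JG, 11526 to 27417 in L3–L5 DRG, with 17639 to 28353 in T10-L1 DRG, above the neuronal sum in every ganglion, and most of that sum was *Apoe*. In bulk libraries a smaller number of cells of a type and less RNA in each cannot be told apart. The mice are labelled male, yet *Xist* had 1279 to 8362 counts in the 16 libraries and 7 genes of chromosome Y had 0 in all, which did not separate the ganglia. Whether the annotation or the counting emptied those 7 rows was not tested. The nodose marker *Hoxb5* was highest in NG/JG, at 41 to 235 CPM, but reached 36.5 CPM in L3–L5 DRG library 3. Its highest T10-L1 DRG value was 15.3 CPM, and its highest TG value was 0.197 CPM. *P2rx2* reached 967 CPM in NG/JG and at most 10.9 elsewhere, but had 1 count in NG/JG library 4 and 6998 in library 3. *Cckar*, another nodose marker, overlapped, with 0.103 to 123 CPM in NG/JG and up to 46 in L3–L5 DRG.

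On the scale of RPKM, which corrects for transcript length, *Calca* had the highest mean level of the 10 genes in TG, at 614 ± 467 RPKM (SD, n = 4), in L3–L5 DRG, at 1276 ± 1049 RPKM, and in T10-L1 DRG, at 576 ± 389 RPKM. In NG/JG its mean was 46.2 ± 65 RPKM, below those of *Adcyap1*, *Vip* and *Cartpt*. The *Vip* mean there rested on library 3, at 291 RPKM, with at most 0.273 RPKM in the other NG/JG libraries. *Cartpt* had the highest mean in NG/JG, 133 ± 177 RPKM, which rested mainly on library 2. At the other end, *Npy* had no read in any of the 16 libraries. The lowest *Calca* count was 20, in NG/JG library 4.

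**Figure D1:**
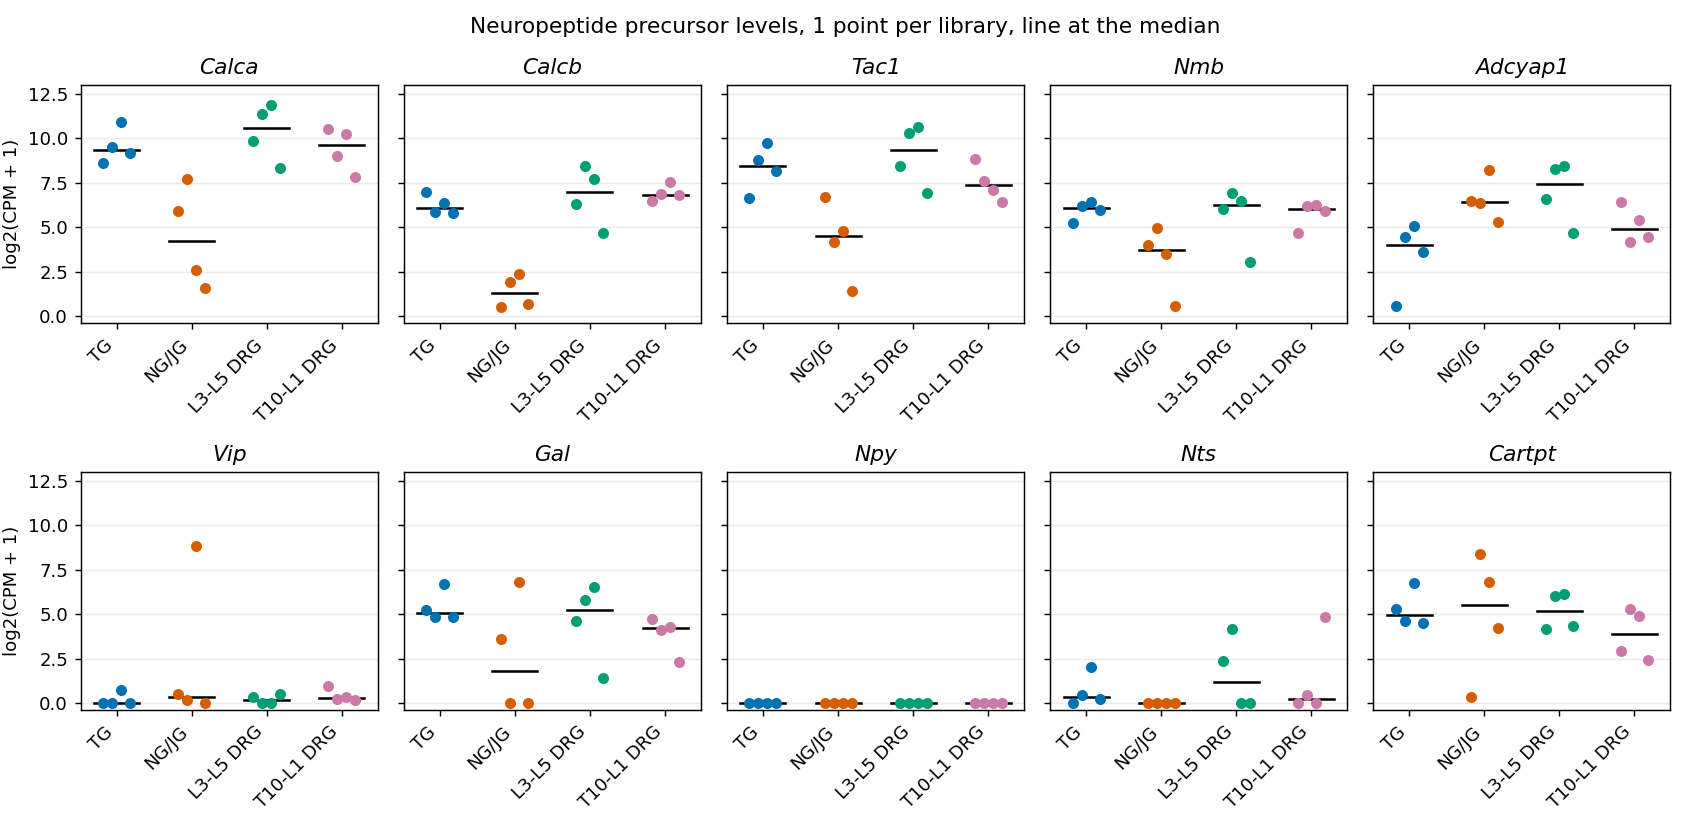
Levels of the 10 neuropeptide precursors as log2(CPM + 1) in each of the 4 libraries of each ganglion, with 1 point per library and a line at the median. The NG/JG points for *Calca* and *Calcb* lie below those of all 12 other libraries, the only *Vip* value above 1 CPM is NG/JG library 3, and *Npy* is at 0 throughout.

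Both CGRP genes had their lowest levels in NG/JG. *Calca*, which makes α-CGRP, had 394, 736, 1924 and 582 CPM in the 4 TG libraries, 59.4, 207, 4.98 and 2.07 in NG/JG, 908, 2620.2, 3701 and 325 in L3–L5 DRG and 1446, 513, 1224 and 228 in T10-L1 DRG. All 4 NG/JG libraries lay below the other 12, by a narrow margin between NG/JG library 2 and T10-L1 DRG library 4, while the 3 other ganglia overlapped. *Calcb*, which makes β-CGRP, had 128, 56.7, 80.6 and 55.7 CPM in TG, 0.417, 2.84, 4.15 and 0.62 in NG/JG, 79.6, 343, 206 and 24.3 in L3–L5 DRG and 89.7, 118, 183 and 110.5 in T10-L1 DRG. The NG/JG libraries again lay below all others, here by a wide margin, with counts of 3, 25, 30 and 6. Of the 8 precursors that could be tested, these 2 were separated in this way, against 1.10% of the 14236 genes tested.

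*Calcb* was the member whose difference passed the test. In NG/JG against the mean of the other ganglia its log2 fold change was -5.94 (SE 0.83, unadjusted p = 1.14e-06, adjusted p = 0.00204) by the quasi-likelihood test of edgeR on 16 libraries. In the test for any difference among the 4 ganglia its adjusted p was 0.00618. Both calls held when any single library was left out, when the 3 libraries lowest in sensory neuron genes were left out together, and with DESeq2. *Calca* had a log2 fold change of -4.15 (SE 1.07, unadjusted p = 0.00109, adjusted p = 0.0706) for NG/JG against the other ganglia, which did not pass. Without NG/JG library 2, which had the highest *Calca* of that ganglion, its adjusted p was 0.0342, with 0.913% of all genes called. DESeq2 called it, with an adjusted p of 8.72e-05.

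*Tac1* encodes substance P and neurokinin A, and *Nmb* encodes neuromedin B, a bombesin-like peptide linked to itch. *Tac1* had 97.5, 440.5, 850.3 and 285 CPM in TG, 105, 17.1, 26.8 and 1.65 in NG/JG, 343, 1272, 1566 and 119 in L3–L5 DRG and 456, 195, 138 and 83.5 in T10-L1 DRG. NG/JG was low except for its library 1, which lay above TG library 1 and T10-L1 DRG library 4, and no overlap remained between NG/JG and L3–L5 DRG. *Nmb* had 36.8, 72, 83.8 and 60.9 CPM in TG, 15, 29.8, 10.4 and 0.517 in NG/JG, 65.2, 121, 88.7 and 7.18 in L3–L5 DRG and 24.8, 71.3, 74.5 and 58.7 in T10-L1 DRG. Here NG/JG was separate from TG alone, because L3–L5 DRG library 4 and T10-L1 DRG library 1 were low too. For NG/JG against the mean of the others, the log2 fold change of *Tac1* was -3.53 (SE 0.95, unadjusted p = 0.00159, adjusted p = 0.0796) and that of *Nmb* was -2.28 (SE 0.80, unadjusted p = 0.0103, adjusted p = 0.144) in edgeR's test, so neither passed. Without TG library 1 the adjusted p of *Tac1* was 0.0492, and without NG/JG library 1 it was 0.0199. Those fits called 2.76% and 3.64% of all genes. DESeq2 called both genes, at adjusted p-values of 0.000425 and 0.0176.

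*Adcyap1*, the precursor of PACAP, was ordered differently from the CGRP genes. It had 0.508, 20.7, 33.3 and 11.2 CPM in TG, 88.6, 80.1, 295 and 37.9 in NG/JG, 96, 315, 353 and 25.1 in L3–L5 DRG and 84.7, 17.3, 40.9 and 20.8 in T10-L1 DRG. TG was the lowest ganglion, with all 4 libraries below all 4 of NG/JG, and the median was highest in L3–L5 DRG (206 CPM), followed by NG/JG (84.4 CPM), 2 ganglia whose values overlapped. Its adjusted p for any difference among the ganglia was 0.176 with edgeR and 0.0487 with DESeq2. The log2 fold change of TG was -3.18 (SE 1.09, unadjusted p = 0.0144, adjusted p = 0.155) against L3–L5 DRG and -2.65 (SE 1.05, unadjusted p = 0.0279, adjusted p = 0.391) against NG/JG. TG library 1, which had the lowest sum of sensory neuron genes, had 4 counts of *Adcyap1*, the lowest of the 16.

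*Vip*, which belongs to the same peptide family as *Adcyap1*, was found in strength in a single library. Its counts were 0, 0, 4 and 0 in TG, 3, 1, 3214 and 0 in NG/JG, 3, 0, 0 and 2 in L3–L5 DRG and 6, 2, 3 and 2 in T10-L1 DRG. NG/JG library 3, with 444 CPM, had more *Vip* than *Adcyap1*, which was at 295 CPM there. The other 15 libraries had at most 6 counts. Because edgeR's filter asks for reads in as many libraries as a group holds, the gene was left untested. Without that filter edgeR called it for NG/JG against the mean of the others (adjusted p = 0.00233), a call that rests on library 3. In that library the nodose markers summed to 1325 CPM, against 127 to 232 CPM in the other 3 NG/JG libraries, and their part in the *Vip* level was not tested.

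*Gal* encodes galanin. It had 36.8, 27.3, 101 and 27.9 CPM in TG, 11, 0, 112 and 0 in NG/JG, 23.8, 54.1, 91.5 and 1.69 in L3–L5 DRG and 25.1, 16.1, 18.7 and 4.05 in T10-L1 DRG. NG/JG ranged from no read in libraries 2 and 4 to the highest value of all in library 3, so that its spread covered the other ganglia. All TG libraries lay above all T10-L1 DRG libraries, with a log2 fold change of 1.99 (SE 0.66, unadjusted p = 0.0127, adjusted p = 0.108) in edgeR's test. Markers of pituitary cells, in which galanin is also known, summed to 70.8 to 9501 CPM in TG and to at most 20.7 CPM in any other library. In TG, *Prl* had 38.8 to 8455 CPM, *Gh* 13.3 to 514 and *Pomc* 5.62 to 819. Of the 7 markers, 3 were at or below the floor in every TG library. The authors reported the products of *Prl*, *Gh* and *Pomc* in TG neurons by immunohistochemistry. TG library 3 had the highest sum and the highest *Gal* of TG, while TG library 2 had the next sum, 1952 CPM, and the lowest *Gal* of TG. The part of pituitary cells in the *Gal* level was not tested. *Npy*, the precursor of neuropeptide Y, was 1 of 2150 gene symbols (9.51%) that had 0 counts in all 16 libraries. None of its 517 annotated 50-base windows had a second match on the genome and no other gene overlapped its exons. Whether the row was emptied by the annotation or the counting was not tested, so these 0 values may be no measurement of *Npy*.

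*Nts*, the precursor of neurotensin and neuromedin N, was sparse and uneven. Its counts were 0, 2, 18 and 1 in TG, 0, 0, 0 and 0 in NG/JG, 43, 167, 0 and 0 in L3–L5 DRG and 0, 4, 0 and 369 in T10-L1 DRG. T10-L1 DRG library 4 alone held 369 reads, and 11 of 16 libraries were at or below the floor of 3 counts. Its adjusted p for NG/JG against the others was 0.197 in edgeR's test. With every NG/JG library at 0, the fitted fold depends on the prior count and is not given. *Cartpt*, which encodes the cocaine- and amphetamine-regulated transcript peptide and is known in vagal afferents, had 38.5, 23.8, 104 and 21.8 CPM in TG, 0.278, 336, 109 and 17.9 in NG/JG, 17.2, 62.9, 68 and 19.2 in L3–L5 DRG and 6.57, 38.6, 28.4 and 4.43 in T10-L1 DRG. NG/JG held both the highest and the lowest of the 16 values, a range of 2 to 2956 counts. Its log2 fold change for NG/JG against the others was 1.68 (SE 0.85, edgeR's adjusted p = 0.328), while its difference in mean log2 CPM had the other sign, at -0.33, so no direction is given.

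Set beside all genes, the calls read as follows, as a description, since the members were chosen with earlier results of these data known. In edgeR's test of NG/JG against the mean of the others, 1 of the 8 precursors tested was called, *Calcb*, while 0.829% of all genes tested were, 35 higher and 83 lower in NG/JG. At an unadjusted p under 0.05 there were 5 precursors, all lower, against 17.1% of all genes. DESeq2 called 5, namely *Calca*, *Calcb*, *Tac1*, *Nmb* and *Nts*, against 10.5%, and the call of *Nts* is of a group at 0. In the test for any difference among the 4 ganglia, 1 of 8 was called, again *Calcb*, against 3.01% of all genes. That share rested on single libraries, since the 429 genes called became 33 without TG library 2, 36 without TG library 3, 36 without TG library 4 and 1035 without TG library 1. At an unadjusted p there were 4, against 17.5%, and DESeq2 called 4, namely *Adcyap1*, *Calca*, *Calcb* and *Tac1*, against 12.7%. *Vip* and *Npy* were tested in neither fit.

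**Figure D2:**
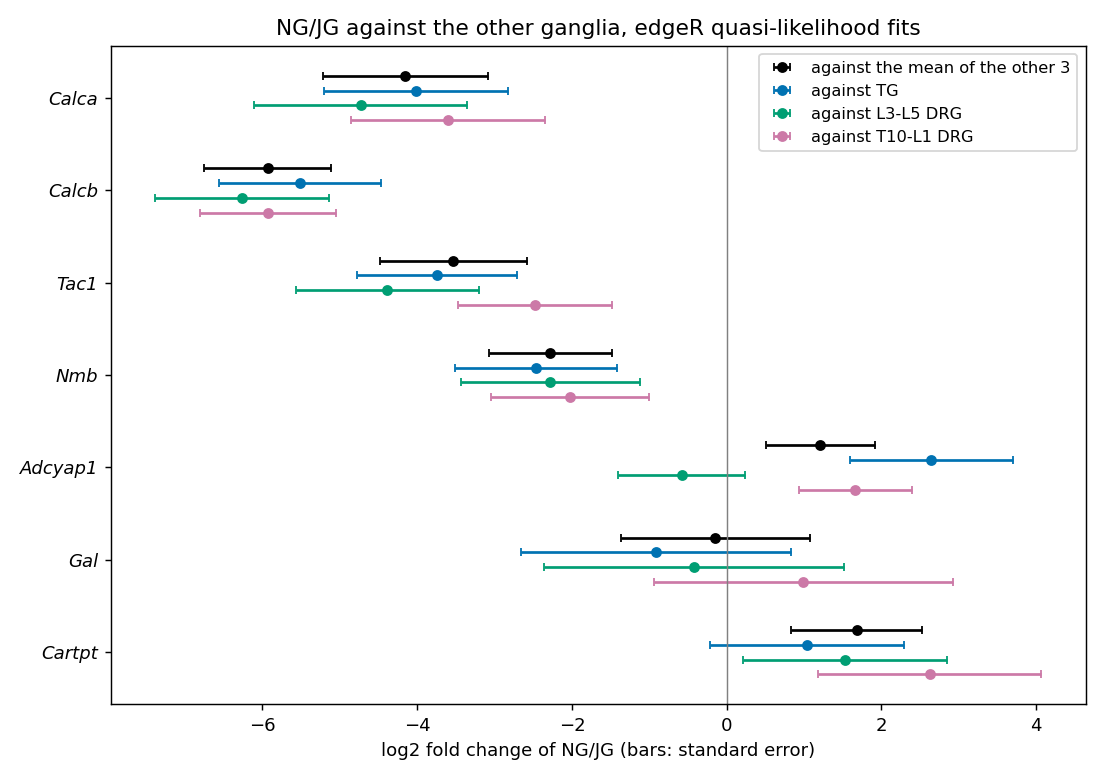
Log2 fold change of NG/JG against the mean of the other ganglia (16 libraries in the fit) and against TG, L3–L5 DRG and T10-L1 DRG (8 libraries in each fit) for 7 precursors, with the standard error as bars. *Calca*, *Calcb*, *Tac1* and *Nmb* lie below 0 in all 4 contrasts, *Cartpt* lies above 0, *Adcyap1* lies below 0 against L3–L5 DRG alone, and the bars of *Gal* cross 0.

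Between 2 ganglia at a time, with 8 libraries in each fit, edgeR called none of the 7 precursors tested in any of the 6 pairs. The 3 pairs with NG/JG share its libraries and are not independent of each other. Against T10-L1 DRG, 0 precursors were called by edgeR (0.0322% of all genes), 4 had an unadjusted p under 0.05 (5.91%) and DESeq2 called *Calcb* (6.13%). The log2 fold change of *Calcb* there was -5.93 (SE 0.88, unadjusted p = 5.72e-05, adjusted p = 0.0711) in edgeR's test. Against L3–L5 DRG, edgeR called 0 (0%), 3 had an unadjusted p under 0.05 (6.04%) and DESeq2 called *Calca*, *Calcb* and *Tac1* (5.66%). The log2 fold change of *Calcb* was -6.26 (SE 1.13, unadjusted p = 0.000232, adjusted p = 0.168) in edgeR's test. For TG against NG/JG, edgeR called 0 (0.0510%), 5 had an unadjusted p under 0.05 (10.03%) and DESeq2 called *Calca*, *Calcb* and *Tac1* (6.35%). *Calcb* was higher in TG by a log2 fold change of 5.52 (SE 1.05, unadjusted p = 0.000217, adjusted p = 0.093) in edgeR's test. Without TG library 1 its adjusted p was 0.0467, in a fit that called 2.58% of all genes. With all 16 libraries in one fit, *Calcb* was called in the 3 pairs, and *Tac1* in TG against NG/JG. Of all genes, 0.379% were called against T10-L1 DRG, 0.583% against L3–L5 DRG and 3.4% in TG against NG/JG.

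Among TG and the DRG levels, edgeR called no precursor in any of the 3 pairs. For L3–L5 against T10-L1 DRG, edgeR called 0 of 7 (0% of all genes), DESeq2 called 0 (0.499%) and 2 had an unadjusted p under 0.05 (6.07%), both higher in L3–L5 DRG. These were *Adcyap1*, with a log2 fold change of 2.27 (SE 0.82, unadjusted p = 0.0204, adjusted p = 0.785), and *Tac1*, with 1.93 (SE 0.81, unadjusted p = 0.0387, adjusted p = 0.785), in edgeR's test. *Calca* differed by 1.15 (SE 0.79) and *Calcb* by 0.37 (SE 0.67) on the log2 scale. For TG against L3–L5 DRG, edgeR called 0 of 7 (0%), 1 had an unadjusted p under 0.05 (18.2%), and DESeq2 called the same gene, *Adcyap1* (11.3%). Without TG library 1 and L3–L5 DRG library 4 together, edgeR called it as well, with an adjusted p of 0.0118, where 19.4% of all genes were called. For TG against T10-L1 DRG, edgeR called 0 of 7 (5.87%), 1 had an unadjusted p under 0.05 (21.6%) and DESeq2 called it, *Gal* (15.4%). Without TG library 1, edgeR called *Gal* (adjusted p = 0.0328) and *Tac1* (adjusted p = 0.0418), both higher in TG, in a fit that called 26.7% of all genes.

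The make-up of the precursor counts in NG/JG did not overlap with the other ganglia for *Calca*, *Calcb* and *Adcyap1*, while the sum of the 10 genes did. The 10 genes together took 0.00607% to 0.101% of the reads on genes in NG/JG, against 0.0522% to 0.607% in the other ganglia. *Calca* made up 53.4% to 60.5% of the precursor counts in TG, 54.5% to 62.2% in L3–L5 DRG, with 42.4% to 71.7% in T10-L1 DRG. In NG/JG it made up 0.494% to 30.8%, below every other library. *Calcb* made up 0.149% to 1.02% in NG/JG and at least 2.53% in any other library. *Adcyap1* went the other way, with 11.9% to 62.5% in NG/JG against at most 6.56% in any other library. *Tac1* was the second precursor by median share in TG, L3–L5 DRG and T10-L1 DRG, at 27.0%, 24.3% and 17.8%. The leading precursor differed between the NG/JG libraries, being *Tac1* in library 1, *Cartpt* in library 2, *Vip* in library 3 and *Adcyap1* in library 4. Shares within a library are tied to each other, and these are given as a description.

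**Figure D3:**
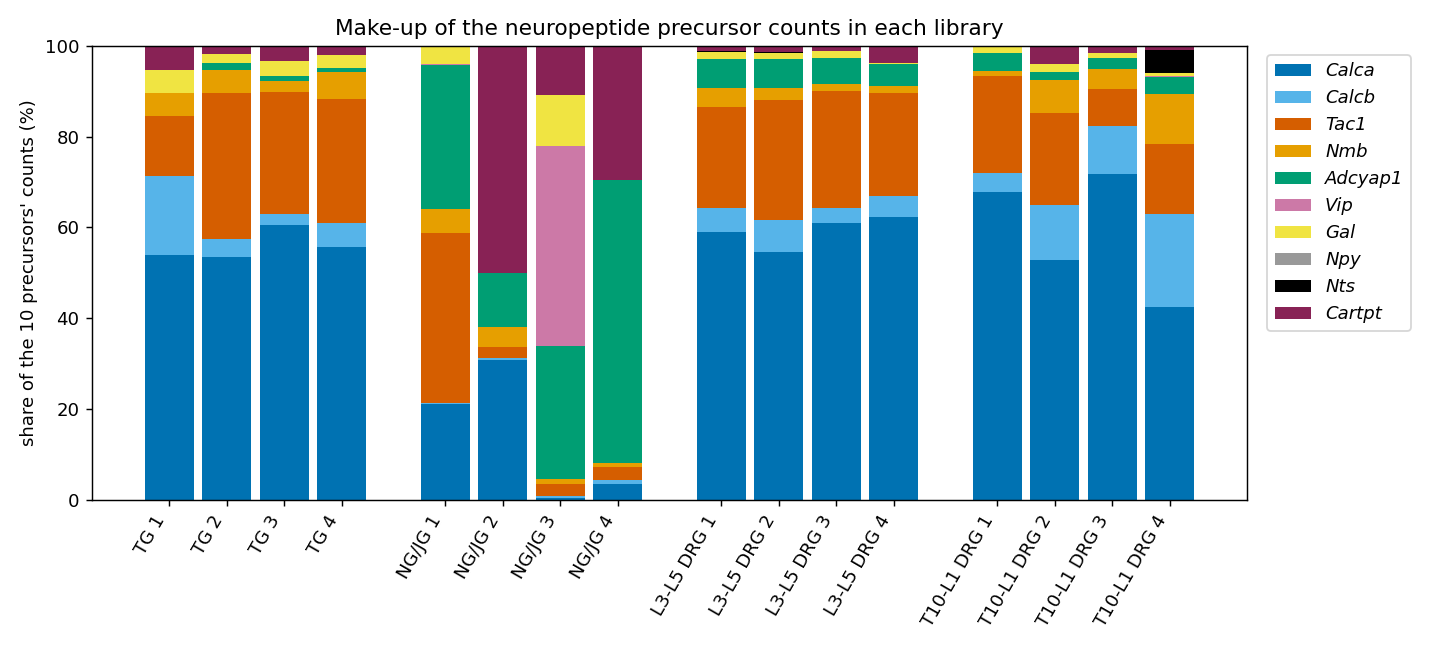
Share of each precursor in the summed counts of the 10 genes, in percent, for each of the 16 libraries as stacked bars. *Calca* and *Tac1* take most of every bar outside NG/JG, while the 4 NG/JG bars are led by *Tac1*, *Cartpt*, *Vip* and *Adcyap1*.

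The ratio of 2 precursors within a library is free of the library total. The counts of *Calcb* over *Calca* were 0.324, 0.077, 0.0419 and 0.0957 in the TG libraries, 0.0876, 0.131, 0.0555 and 0.0748 in L3–L5 DRG and 0.0621, 0.229, 0.15 and 0.484 in T10-L1 DRG. TG library 1 and T10-L1 DRG library 4 had the highest ratios of these, and the ganglia overlapped. In NG/JG the ratios were 0.00703, 0.0137, 0.833 and 0.300, the last 2 on 36 and 20 counts of *Calca*. *Tac1* over *Calca* was steady in L3–L5 DRG, at 0.378, 0.485, 0.423 and 0.367, and spread from 0.113 to 0.599 in TG and T10-L1 DRG. In NG/JG it spanned 1.76, 0.0824, 5.39 and 0.800. *Tac1* exceeded *Calca* in NG/JG libraries 1 and 3 and in no other library.

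**Figure D4:**
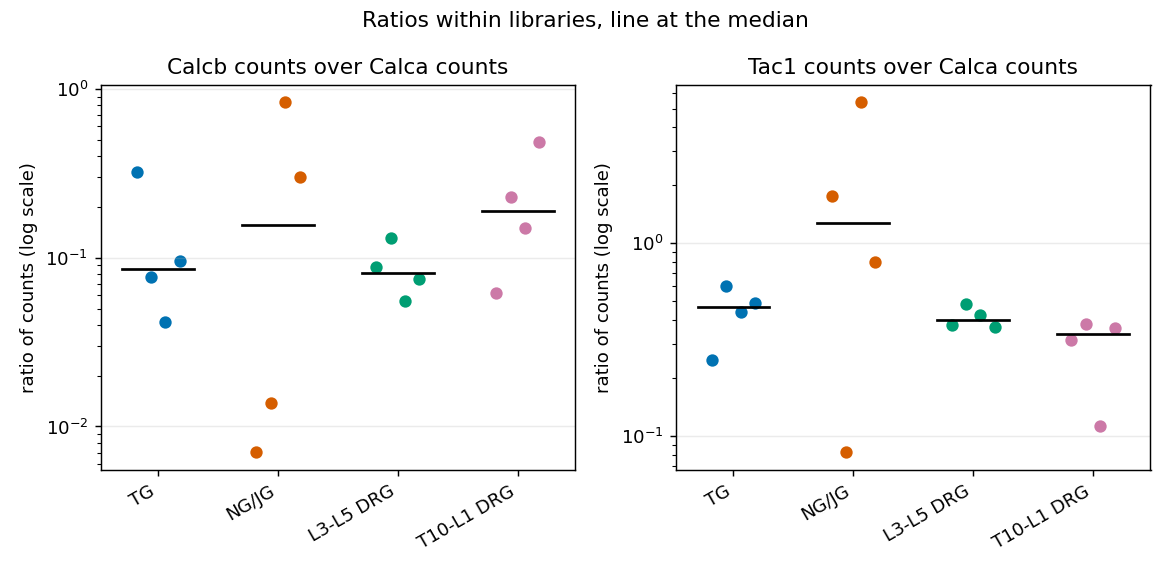
Ratio of *Calcb* to *Calca* counts and of *Tac1* to *Calca* counts in each library on a log axis, grouped by ganglion, with a line at the median. The L3–L5 DRG points are close together, and the NG/JG points span the widest range in both panels.

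The levels were also set beside the summed level of sensory neuron genes. In L3–L5 DRG, the lowest *Calca* came from library 4, which also had the lowest sum of these genes in that ganglion. Per 1000 counts of the 9 sensory neuron genes, *Calca* had 253 to 343 counts in L3–L5 DRG, where its CPM spanned 325 to 3701. On that scale it had 228 to 565 in TG, 113 to 719 in T10-L1 DRG, against 0.694 to 44.6 in NG/JG. *Calcb* had 21.8 to 144, 19 to 36.6 and 35.3 to 54.6 in TG, L3–L5 DRG and T10-L1 DRG. In NG/JG it had 0.208 to 0.855. Scaled to neuronal reads, both genes lay lower in all 4 NG/JG libraries than in the other 12. The difference in mean log2 level between NG/JG and the others was -6.23 for *Calcb* in CPM and -6.37 per neuronal count, and for *Calca* it was -5.53 and -5.66. Dividing by the neuronal sum shifts this difference equally for every gene without 0 counts, so the closeness of the scales was set by the scaling. The share of all genes that separate NG/JG on the neuronal scale was not computed. This scaling was chosen after the data were examined.

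**Figure D5:**
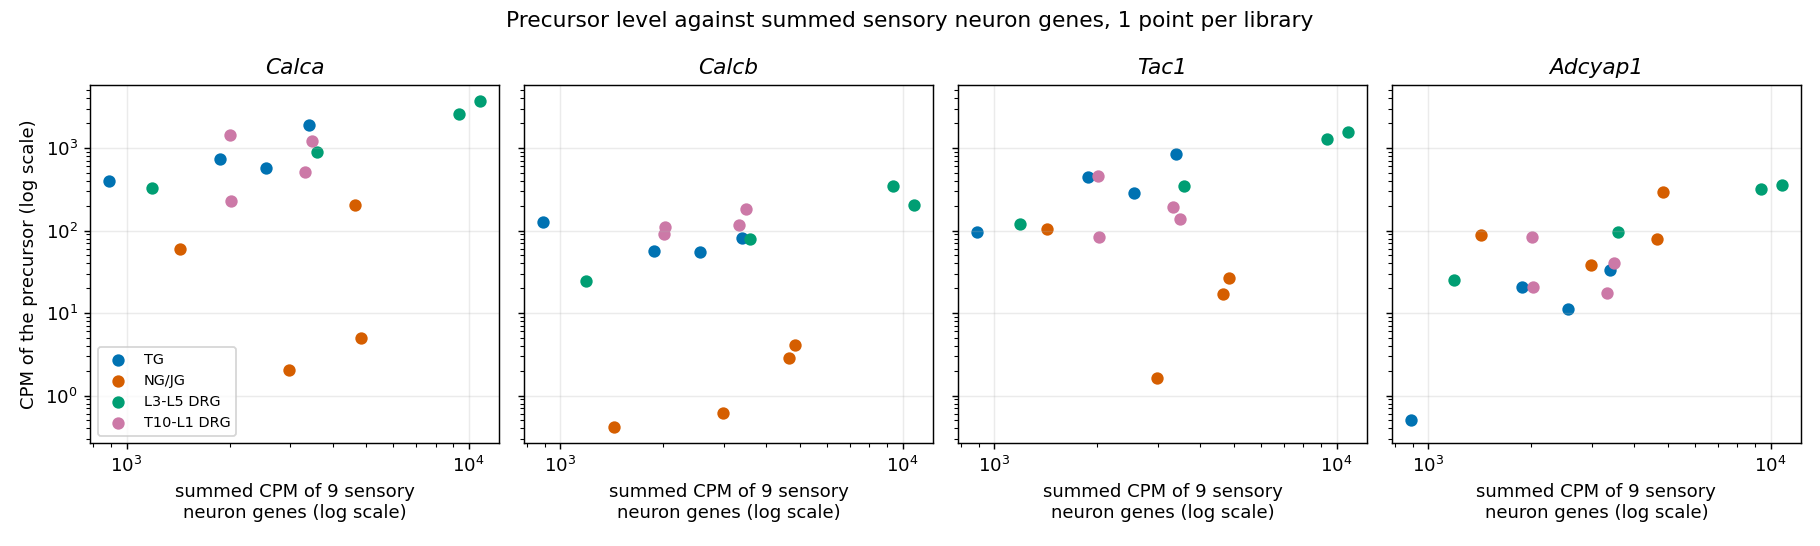
CPM of *Calca*, *Calcb*, *Tac1* and *Adcyap1* against the summed CPM of 9 sensory neuron genes in each library, both on log axes, coloured by ganglion. The NG/JG points for *Calca* and *Calcb* lie below the rest at similar neuronal sums. In CPM, those of *Adcyap1* lie above all TG points and overlap the points of both DRG levels.

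The genes most alike to each precursor over the 16 libraries, by Pearson r of log2(CPM + 1) among genes with a mean of at least 10 CPM, were as follows. For *Calca* they were *Gfra3* (r = 0.95), the co-receptor for artemin in peptidergic nociceptors, and *Kcnab2* (r = 0.921), a potassium channel subunit. For *Calcb* they were *1110008J03Rik* (r = 0.961) and *E130309D02Rik* (r = 0.952), and for *Tac1* *Tprgl* (r = 0.92) and *Stac2* (r = 0.886). *Nmb* went with *Fah* (r = 0.898) and *Ubl4* (r = 0.892), *Adcyap1* with *Dgkg* (r = 0.933) and *Tmeff2* (r = 0.914), *Gal* with *2610524H06Rik* (r = 0.907) and *Plcd4* (r = 0.899), and *Cartpt* with *Wbscr27* (r = 0.862) and *Ak1* (r = 0.827). For *Vip*, *Ppfia2* (r = 0.791) and *BC017647* (r = 0.757) were nearest, and these rest on 1 library. Among the members, *Calca* and *Tac1* had an r of 0.888 and *Calca* and *Adcyap1* of -0.005. With each ganglion's mean removed these became 0.708 and 0.475. The libraries share the ganglion and the neuronal content, so these values are descriptions.

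The genes that make, store and receive the peptides were compared in the same way. Of 16 genes for precursor processing and dense-core vesicles, such as the convertases *Pcsk1* and *Pcsk2* and the amidating enzyme *Pam*, all were tested and 0 were called among the 4 ganglia by edgeR or by DESeq2, with 1 at an unadjusted p under 0.05, *Scg2*. Secretogranin *Scg2* had 12.1 to 119 CPM in TG, 38.3 to 901 in NG/JG, 143 to 923 in L3–L5 DRG, with 26.1 to 268 in T10-L1 DRG. The carboxypeptidase *Cpe* had 194 to 935 CPM in NG/JG, and 387 to 1519.9 in the 12 other libraries. The median log2 fold change of these 16 genes in NG/JG against the others was 0.21, beside -0.07 over all genes tested. In that contrast edgeR called 0 of them, 2 had an unadjusted p under 0.05, and DESeq2 called 2, both lower in NG/JG. The granin *Chgb* had 0 to 7.74 CPM in NG/JG and 10.4 to 58.8 in TG. Of 22 receptors for the members' peptides, 11 were tested. In the test among the 4 ganglia 0 were called by edgeR, 5 had an unadjusted p under 0.05 and DESeq2 called 4. *Ntsr2*, a neurotensin receptor, had 5.91 to 19.2 CPM in L3–L5 DRG, 0.127 to 20.9 in TG and 0 to 2.86 in T10-L1 DRG. No read of *Ntsr2* was found in NG/JG (edgeR's adjusted p = 0.072 among the 4 ganglia and 0.0877 for NG/JG against the others). *Adcyap1r1*, the PACAP receptor, had 4.01 to 35.7 CPM in L3–L5 DRG, 0.127 to 7.04 in TG and 1.56 to 23.8 in T10-L1 DRG. In NG/JG *Adcyap1r1* had 0 to 0.278 CPM (edgeR's adjusted p = 0.114 among the 4 ganglia and 0.0751 for NG/JG against the others). *Npy2r*, a receptor of neuropeptide Y known in vagal neurons, had 0.103 to 67 CPM in NG/JG and at most 33.4 elsewhere, and *Ramp2* had 89.5 to 206 CPM in TG and 12.7 to 94.5 in NG/JG. The median log2 fold change of the 11 receptors in NG/JG was -1.59.

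Of 14 other neuropeptide precursors, 3 were tested. Among the 4 ganglia 0 were called by edgeR, with 0 at an unadjusted p under 0.05, and DESeq2 called 1. *Penk*, the precursor of enkephalins, had 0.127 to 13.2 CPM in TG, 0 to 28.2 in NG/JG, 12.7 to 40.1 in L3–L5 DRG, with 0 to 7.88 in T10-L1 DRG. *Adm* reached 66.4 CPM and *Pnoc* 10.4 CPM at most. Of 6 markers of peptidergic nociceptors that are not peptides, 0 were called among the 4 ganglia by edgeR. In that test 1 had an unadjusted p under 0.05, and DESeq2 called 1. Their median log2 fold change in NG/JG against the others was -0.60. *Trpv1*, the capsaicin receptor, had 2.63 to 9.9 CPM in TG, 0.103 to 193 in NG/JG, 43.5 to 614 in L3–L5 DRG, with 10.7 to 70.9 in T10-L1 DRG. *Gfra3* had 0 to 74.9 CPM in NG/JG, against 51.3 to 110.1 in T10-L1 DRG. Of 7 non-peptidergic markers, edgeR's test among the 4 ganglia called *Mrgprd* (adjusted p = 0.00947). *Mrgprd* had 0.207 to 1.93 CPM in NG/JG and 25.3 to 808 in L3–L5 DRG. Of 6 large-fibre markers the same test called *Pvalb* and *Ntrk2*.

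Markers of other cells and states were compared among the ganglia too, and the part of those cells and states in the peptide levels was not tested. In the test among the 4 ganglia, edgeR called 1 of 9 sensory neuron identity genes (*Avil*), 2 of 5 nodose markers (*Hoxb5* and *P2rx2*), 3 of 7 pituitary markers (*Gh*, *Prl* and *Pomc*), 1 of 5 satellite glial markers (*Apoe*), 1 of 5 oligodendrocyte markers (*Mog*), 4 of 6 neutrophil markers and 1 of 4 mural markers (*Rgs5*). It called 0 of 8 axon injury genes, 0 of 8 immediate-early genes, 0 of 7 sympathetic markers, 0 of 5 Schwann cell markers, 0 of 5 macrophage markers, 0 of 4 endothelial markers and 0 of 4 fibroblast markers. The totals are the sizes of the lists, and not every gene was tested. For example, 3 nodose, 3 pituitary, 7 axon injury and 4 sympathetic genes were. Over all genes tested, edgeR called 3.01%. At an unadjusted p under 0.05 there were 2 axon injury genes, 7 immediate-early genes, 1 sympathetic, 1 Schwann cell and 1 fibroblast marker, and none of the macrophage and endothelial markers. Over all genes that share was 17.5%. Of the lists in which edgeR called 0, DESeq2 called 2 axon injury genes, 2 immediate-early genes and 1 Schwann cell marker, against 12.7% of all genes. Axon injury genes, a group that galanin is known to rise with, summed to 356 to 1256 CPM in TG, 957 to 5845 in NG/JG, 417 to 764 in L3–L5 DRG, with 1121 to 4072 in T10-L1 DRG. Immediate-early genes summed to 7954 to 18453, 16529 to 37768, 2326 to 14179 and 12803 to 28164 CPM in the same order. A large part of the axon injury sums was *Atf3*, at 270 to 1167 CPM in TG and 505 to 5091 in NG/JG. The DRG libraries held 155 to 638 CPM of *Atf3* at L3–L5 and 986 to 3595 at T10-L1. NG/JG library 4, with the lowest *Calca*, *Tac1* and *Nmb* and no *Gal*, had the highest sums of both lists in its ganglion, at 5845 and 37768 CPM. NG/JG library 2 had the next sums, at 3067 and 29946 CPM, the highest *Calca* and *Nmb* of NG/JG, and also no *Gal*. NG/JG library 3 had the lowest sums of its ganglion, at 957 and 16529 CPM, and its highest *Gal*, at 112 CPM. Mural cell markers summed to 0.413 to 103 CPM in NG/JG, against 206 to 937 in T10-L1 DRG, and *Rgs5* was at or below 0.228 CPM in every NG/JG library. Markers of sympathetic neurons, which use neuropeptide Y, summed to 8.08 to 67.8 CPM in TG and 38 to 269 in NG/JG. Their sums were 63.1 to 227 CPM for L3–L5 DRG, with 37.7 to 87 for T10-L1 DRG. No library had an *Npy* read. Among these markers, *Th* reached 212 CPM at L3–L5 and 182 in NG/JG, and *Slc18a2* reached 132 in NG/JG. The paper lists *Th* among genes enriched in sensory neurons of L3–L5 over those of T10-L1. Whether sympathetic neurons were present was not tested.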

How the data were processed

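RNA of sorted neurons was amplified from poly(A) tails by SMART-seq-2 and sequenced as single reads of 50 bases. Reads were aligned to mm9 with TopHat 2 and counted per gene with HTSeq-count by the authors, who deposited whole-number counts with no normalization. The strand setting is not given in the sources used here. Rows that name no gene were left out of library sizes. Of the unique reads, 29.6% to 66.6% lay outside genes. The 16 libraries held 4735624 to 13333318 reads on genes, with a median of 8332661.

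Counts were tested as deposited with edgeR 4.0.16 (R 4.3.3), using TMM factors, filterByExpr and the quasi-likelihood F test, with Benjamini-Hochberg adjustment over all genes tested and a threshold of 0.05. Each pair of ganglia was fitted on its own 8 libraries. The test among the 4 ganglia and the contrast of NG/JG with the mean of the others used all 16. DESeq2 1.42.0, RLE factors, no filter on low counts, a replicate block, all 16 libraries in a single fit, TMM-scaled CPM and each library left out were alternatives. Leaving out the 3 libraries lowest in sensory neuron genes and scaling to those genes were added after the data were seen. CPM used the reads on genes, a pseudocount of 1 was added before log2, and RPKM used annotated exon length. The fits were tested on simulated data. Sequences came from GENCODE M1 transcripts on mm9 and from RefSeq promoters on GRCm38.p6, read with Python 3.11.15.

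The members and the gene lists were chosen with earlier results of these data known. Named genes were all members, up to 4 genes with the lowest p among the 4 ganglia in each list, markers that define a cell type, and the 2 genes most alike to each member with a mean of at least 10 CPM.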

Additional observations from a re-analysis of the deposited data

Results flagged for a closer look

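In 35 groups of 4 libraries with a value above 0, the gap between the farthest library and its neighbour was compared with Dixon's 95% critical value. It was exceeded in 7 groups. Chance flags about 1 in 20 groups of normally distributed values, a rate that does not hold for sparse counts, and the ratio is 1 by construction where 3 libraries are at 0, as for *Vip* in TG. *Vip* was flagged in NG/JG, where library 3 had 444 CPM and the next 0.417, in TG, where library 3 had 0.687 CPM from 4 counts and the others 0, and in T10-L1 DRG, where library 1 had 0.917 CPM from 6 counts and the next 0.247. *Gal* was flagged in TG, where library 3 had 100.9 CPM and the next 36.8, and in NG/JG, where library 3 had 112 CPM and the next 11. *Nts* was flagged in TG, where library 3 had 3.09 CPM from 18 counts and the next 0.393, and in T10-L1 DRG, where library 4 had 27.7 CPM from 369 counts and the next 0.381. TG library 3 and NG/JG library 3 account for 5 of the 7.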

How the results depend on the processing

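Many values of *Vip* and *Nts* are at or below 3 counts, where differences are not detectable at this depth, and whether the 0 values of *Npy* are a measurement is unknown. The 21 fold changes with an unadjusted p under 0.05 kept their direction in all 329 alternatives. These folds were picked by their p in the same libraries, which favours an unchanged direction. The 40 median levels moved by no more than 1 SD under TMM scaling. The TMM factors ran from 0.769 to 1.14, narrow beside the spread between libraries, so the check of medians could hardly fail. *Calcb* was called in NG/JG against the mean of the others in every alternative run. The number of precursors called depended on the tool: DESeq2 called 1 for NG/JG against T10-L1 DRG, 3 for NG/JG against L3–L5 DRG, 1 for TG against T10-L1 DRG, 1 for TG against L3–L5 DRG, 3 for TG against NG/JG, 4 among the 4 ganglia and 5 for NG/JG against the mean. In the same order, DESeq2 called 6.13%, 5.66%, 15.4%, 11.3%, 6.35%, 12.7% and 10.5% of all genes. Without a filter on low counts there were 1 for NG/JG against T10-L1 DRG, 1 for TG against NG/JG, 2 among the 4 ganglia and 4 for NG/JG against the mean, the last 2 numbers with *Vip*, which rests on 1 library. Those fits called 0.0486%, 0.318%, 1.18% and 0.704% of all genes. With all 16 libraries in one fit there were 1 for NG/JG against T10-L1 DRG, 1 for NG/JG against L3–L5 DRG and 2 for TG against NG/JG. Of all genes, 0.379%, 0.583% and 3.4% were called there. Without the 3 libraries lowest in sensory neuron genes there were 2 for TG against T10-L1 DRG, 1 for TG against L3–L5 DRG, 1 for TG against NG/JG, 3 among the 4 ganglia and 2 for NG/JG against the mean, in fits that called 26.7%, 19.4%, 2.76%, 10.8% and 6.45% of all genes. Leaving out each library in turn gave 0 to 2 for TG against T10-L1 DRG, 0 to 1 for TG against NG/JG, 1 to 2 among the 4 ganglia and 1 to 2 for NG/JG against the mean, while the calls over all genes ran over 0 to 3583, 1 to 325, 33 to 1035 and 60 to 539. The cause was not tested. Replicate numbers are shared by the groups, but do not pair the libraries by the rule that every pair's correlation exceed 0.1: correlations of same-numbered libraries ran from -0.120 to 0.177 over 24 pairs, and 6 were over 0.1, of which 3 were among the 4 pairs of L3–L5 and T10-L1 DRG. With a replicate block, 0 precursors were called in each of the 6 pairs, 1 among the 4 ganglia and 1 for NG/JG against the mean, *Calcb* with a log2 fold change of -6.19 (edgeR's adjusted p = 0.00214). The block fits called 1.29% of all genes among the 4 ganglia, 0.260% for NG/JG against the mean and at most 0.0085% in a pair. Between the DRG levels the block gave unadjusted p-values in edgeR of 0.0681 for *Adcyap1*, 0.0897 for *Tac1* and 0.0153 for *Cartpt*. For TG against NG/JG it turned the log2 fold change of *Cartpt* from -1.03 to 0.40. It called 184 genes among the 4 ganglia, against 429 without it.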
